A study of Mus musculus with 5 samples.

Results

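The receptor tyrosine kinases of the PDGF, KIT, MET and AXL families and some of their ligands were followed across parental embryonic stem cells (ESCs) and the ESC-like cells grown out of teratomas. The 10 genes were Pdgfra, Pdgfrb, Kit, Met, Axl and Mertk, which encode 6 receptors, and Pdgfa, Pdgfc, Kitl and Gas6, which encode 4 ligands. They were chosen by name with earlier results of these data known, so counts over them describe these genes and test nothing. Each is given by the probe set whose platform annotation holds only its symbol. All 10 were found among 19938 genes named in this way, and each had 1 such probe set. Biotin-labelled material made from RNA had been hybridized to Affymetrix Mouse Gene 1.0 ST arrays, where a gene is read by a probe set, a group of short probes along it. The values are log2 expression values that the authors had quantile-normalized across arrays.

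There were 5 arrays. The co-injection condition had 2 arrays, batch 1 and batch 2, of ESC-like cells from teratomas of B6CBAF1 ESCs injected together with B6D2F1 fetal fibroblasts into B6D2F1 mice. The heterologous condition had 1 array, of cells from ESCs injected alone into B6D2F1 mice, and the homologous condition had 1 array, of cells from ESCs injected alone into B6CBAF1 mice. Parental ESCs, the B6CBAF1 line before injection, had 1 array. All injections were subcutaneous, the ESCs in all of them came from a single line, and teratomas were collected after 5 weeks. Parental and ESC-like cells were all cultured on a layer of inactivated ICR fibroblasts, so that RNA of feeder cells, of other cells of the teratoma and of ESC-like cells cannot be told apart in the pooled RNA. The methods of the study give a higher concentration of leukemia inhibitory factor for the cells from teratomas, and what part this has in the values was not tested. With 1 array per condition outside the co-injection pair, differences between conditions have no replicate check, and their precision is limited by how few arrays there were. SDs are those of the co-injection pair, which the labels call batches without saying whether they are separate mice, teratomas or cultures. A difference of over 1 on the log2 scale, which is 2-fold, was counted, after the fold rule of the study's methods, and no p-value is given for it.

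In these families a secreted or membrane-bound ligand binds outside the cell and brings receptor chains together, which switches on the tyrosine kinase inside the cell. PDGF-A and PDGF-C bind the alpha receptor, while the beta receptor is best known for PDGF-B in pericytes and fibroblasts. The alpha receptor marks fibroblasts and, in the mouse blastocyst, the primitive endoderm. KIT is the receptor of stem cell factor (KITL) and is needed by germ cells, melanocytes and blood progenitors, and MET is the receptor of hepatocyte growth factor. AXL and MERTK belong with TYRO3 to the TAM family, which binds GAS6 and protein S and is known for the uptake of dying cells.

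The largest differences were those of Pdgfrb and Axl, which were highest in the heterologous array and lowest in both co-injection arrays. Before their values, the 250 bases before the annotated start are shown for 3 of the 4 receptor genes that passed 2-fold in the heterologous array and for Pdgfc, a ligand gene that was lower in the homologous and co-injection arrays. They are taken from RefSeq on the GRCm38.p6 build. The start used is not always the outer end of the gene. The windows of Met and Pdgfra lie inside the RefSeq spans of these genes, which begin at 17463349 and 75151322. The window of Axl lies partly inside its span, whose upstream end is at 25788924. The window of Pdgfc directly precedes its span, which begins at 81036416. Distances are counted from the start used. Of the 10 genes, 9 matched, all but Pdgfrb. Capitals mark matches, on either strand, to the TEAD motif GGAATG, the AP-1 motif TGANTCA, the GC box GGGCGG or the TATA box TATAAA.
Axl, chr7:25788734-25788983, minus strand: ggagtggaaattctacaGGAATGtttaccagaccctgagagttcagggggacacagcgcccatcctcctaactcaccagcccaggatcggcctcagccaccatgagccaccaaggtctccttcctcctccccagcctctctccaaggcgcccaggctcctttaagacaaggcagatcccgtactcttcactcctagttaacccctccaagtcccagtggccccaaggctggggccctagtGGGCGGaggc
Met, chr6:17463707-17463956, plus strand: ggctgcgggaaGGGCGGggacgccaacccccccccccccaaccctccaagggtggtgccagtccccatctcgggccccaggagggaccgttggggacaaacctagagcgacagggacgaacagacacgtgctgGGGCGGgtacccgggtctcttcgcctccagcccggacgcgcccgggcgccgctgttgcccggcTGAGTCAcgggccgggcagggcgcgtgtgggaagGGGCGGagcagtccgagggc
Pdgfra, chr5:75152001-75152250, plus strand: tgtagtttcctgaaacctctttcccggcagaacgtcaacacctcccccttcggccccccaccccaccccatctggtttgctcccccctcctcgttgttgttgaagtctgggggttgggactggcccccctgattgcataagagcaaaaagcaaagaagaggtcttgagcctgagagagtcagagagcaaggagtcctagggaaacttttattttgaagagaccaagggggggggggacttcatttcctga
Pdgfc, chr3:81036166-81036415, plus strand: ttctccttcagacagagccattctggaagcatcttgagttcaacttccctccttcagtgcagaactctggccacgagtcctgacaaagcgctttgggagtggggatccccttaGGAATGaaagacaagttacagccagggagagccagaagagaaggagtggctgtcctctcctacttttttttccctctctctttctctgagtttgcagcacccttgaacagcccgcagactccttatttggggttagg

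The GC box was the most frequent of these motifs. It lay before the start of 7 of the 9 genes, against 32.7% of 32851 promoter windows of the same length. The TEAD motif was found for Axl, 233 bases before the start, and for Pdgfc, 137 bases before it, and 12.6% of all windows hold it. Met alone held the AP-1 motif, 54 bases before its start (6.75% of all windows), and Kitl alone the TATA box (12.4%). The window of Pdgfra held none of the 4 motifs. Its GC content was 54.4%, near the median of 52.4% over all windows, against 74.0% for Met and 60.0% for Axl. The part of GC content in the GC box count was not tested. A match is a description of letters, and binding at these windows was not measured.

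Pdgfrb, the gene of the PDGF receptor beta chain, had log2 values of 7.08 and 7.18 in the co-injection arrays, 10.66 in the heterologous array, 8.87 in the homologous array and 7.56 in parental ESCs. The heterologous array stood above all others, the homologous array came next, and both co-injection arrays lay below parental ESCs. Relative to parental ESCs, Pdgfrb was 8.58-fold higher in the heterologous array (log2 difference 3.10) and 2.48-fold higher in the homologous array (1.31). The co-injection mean differed from parental ESCs by -0.43 ± 0.068 (SD, n = 2), within 2-fold. Set against the heterologous array, the co-injection arrays were 11.6-fold lower, with differences of -3.58 in batch 1 and -3.48 in batch 2. The gap between the batches, 0.095, was small beside each of these differences.

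Pdgfra, the gene of the alpha chain, was also highest in the heterologous array, with the homologous array next, but over a narrower range. Its log2 values were 7.43 and 6.91 in the co-injection arrays, 8.40 in the heterologous array, 7.70 in the homologous array and 7.30 in parental ESCs. It passed 2-fold only narrowly, at 1.10 in the heterologous array against parental ESCs. Its co-injection batches differed by 0.52, the widest gap among the 10 genes, and lay on either side of parental ESCs. Against the heterologous array the difference was -1.23 ± 0.37 (SD, n = 2), with -0.97 in batch 1 and -1.49 in batch 2, so that batch 1 on its own stayed within 2-fold.

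The ligand genes of the alpha receptor were highest in parental ESCs, and among the ESC-like arrays they were, like Pdgfra, highest in the heterologous array. Pdgfc had log2 values of 9.50 and 9.73 in the co-injection arrays, 10.34 in the heterologous array, 9.38 in the homologous array and 10.78 in parental ESCs. Pdgfa had 10.02 and 10.10 in the co-injection arrays, 10.54 in the heterologous array, 9.97 in the homologous array and 11.00 in parental ESCs. For both genes the heterologous array was the ESC-like array nearest to parental ESCs, and the homologous array the farthest. Against parental ESCs, Pdgfc was 2.23-fold lower after co-injection (-1.16 ± 0.16, SD, n = 2), with both batches past 2-fold, and 2.64-fold lower in the homologous array (-1.40). Pdgfa lay at the threshold, with -0.94 ± 0.059 (SD, n = 2) after co-injection and -1.02 in the homologous array. In the heterologous array both ligand genes stayed within 2-fold of parental ESCs, at -0.43 for Pdgfc and -0.46 for Pdgfa.

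Kit was lower than in parental ESCs in all 4 ESC-like arrays and in none by 2-fold. Its log2 values were 9.23 and 9.41 in the co-injection arrays, 9.15 in the heterologous array, 9.47 in the homologous array and 9.96 in parental ESCs. The co-injection batches spanned 0.17, and the heterologous array lay 0.08 below the lower of them and the homologous array 0.06 above the higher, both less than that span. The heterologous and homologous arrays themselves differed by -0.32. Its differences from parental ESCs were -0.64 ± 0.12 (SD, n = 2) after co-injection, -0.81 in the heterologous array and -0.49 in the homologous array. Germ cell markers, read because KIT acts in germ cells, did not move one way. Of 8 such genes, 1 was higher and 2 were lower than in parental ESCs by over 2-fold after co-injection (median 0.12), none was higher and 3 were lower in the heterologous array (median -0.79), and 2 were higher and 3 lower in the homologous array (median 0.15). Over all named genes the shares higher and lower were 0.647% and 1.44% after co-injection. They were 3.98% and 1.95% in the heterologous array and 1.45% and 1.60% in the homologous array. The sum of the linear values of the 8 genes was 2693 and 2689 in the co-injection arrays, 2127 in the heterologous array, 2808 in the homologous array and 4768 in parental ESCs. Mael, the brightest of them in parental ESCs at 11.41, weighs most in that sum, so it does not describe the list as a whole. Mael and Dazl were lower than in parental ESCs in every ESC-like array, while Dppa3 was higher in the co-injection and homologous arrays. The part of germ cell RNA in the Kit values was not tested. Kitl, the gene of its ligand, had log2 values of 6.87 and 7.06 in the co-injection arrays, 7.71 in the heterologous array and 7.28 in both the homologous array and parental ESCs. Its differences from parental ESCs lay between -0.31 in the co-injection mean and 0.44 in the heterologous array, so that neither gene of this pair passed 2-fold in any comparison.

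Kit and Pdgfra lie in the same stretch of chromosome 5, with Chic2 and Gsx2 on the side of Pdgfra and Kdr, Srd5a3, Tmem165 and Clock beyond Kit. Although they are close neighbours, they moved in opposite directions in the heterologous array, at 1.10 for Pdgfra and -0.81 for Kit. The other 6 genes of the stretch stayed within 2-fold of parental ESCs in every condition. Kdr, which encodes a VEGF receptor of the same wider kinase group, differed by 0.00 in the co-injection mean, -0.17 in the heterologous array and 0.04 in the homologous array.

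Met was lowest in parental ESCs. Its log2 values were 7.04 and 7.00 in the co-injection arrays, 7.84 in the heterologous array, 7.14 in the homologous array and 6.43 in parental ESCs. Every ESC-like array thus lay above parental ESCs, by 0.59 ± 0.032 (SD, n = 2) after co-injection, 1.41 (2.65-fold) in the heterologous array and 0.72 in the homologous array. The homologous array was 0.10 above batch 1 and 0.15 above batch 2, whose own gap was 0.045. Hgf, the ligand gene of MET, differed by at most 0.12 from parental ESCs in any condition.

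Axl had the second widest range. Its log2 values were 8.60 and 8.43 in the co-injection arrays, 11.60 in the heterologous array, 9.71 in the homologous array and 9.71 in parental ESCs. The heterologous array was above parental ESCs and both co-injection arrays were below them. Set against parental ESCs, Axl was 2.29-fold lower after co-injection (-1.20 ± 0.12, SD, n = 2) and 3.71-fold higher in the heterologous array (1.89). Co-injection cells were thus 8.50-fold lower than heterologous cells (-3.09 ± 0.12, SD, n = 2). The homologous array and parental ESCs held the identical deposited value, as they did for Kitl. Such exact ties can come from the median polish of the RMA algorithm, and 7.17% of the named genes had a tie between these 2 arrays.

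The other TAM receptor gene and the TAM ligand gene had a different pattern from Axl. Mertk had log2 values of 7.80 and 7.77 in the co-injection arrays, 8.23 in the heterologous array, 8.13 in the homologous array and 7.49 in parental ESCs. Gas6 had 8.52 and 8.50 in the co-injection arrays, 9.22 in the heterologous array, 8.87 in the homologous array and 8.27 in parental ESCs. For both genes parental ESCs were lowest and the heterologous array highest, and none of the differences from parental ESCs passed 2-fold. Gas6 came nearest, at 0.95 in the heterologous array, with 0.24 ± 0.014 (SD, n = 2) after co-injection and 0.60 in the homologous array. Gas6 lies on chromosome 8, whose 653 genes with a mean above the median of all values had a median difference from parental ESCs of 0.23 in the co-injection mean, 0.04 in the heterologous array and 0.26 in the homologous array. Its co-injection and homologous differences thus stood beside a shift of the whole chromosome, whose part in them was not tested, while its heterologous difference did not. For the chromosomes of the other 9 genes these medians lay between -0.05 and 0.07.

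**Figure D1:**
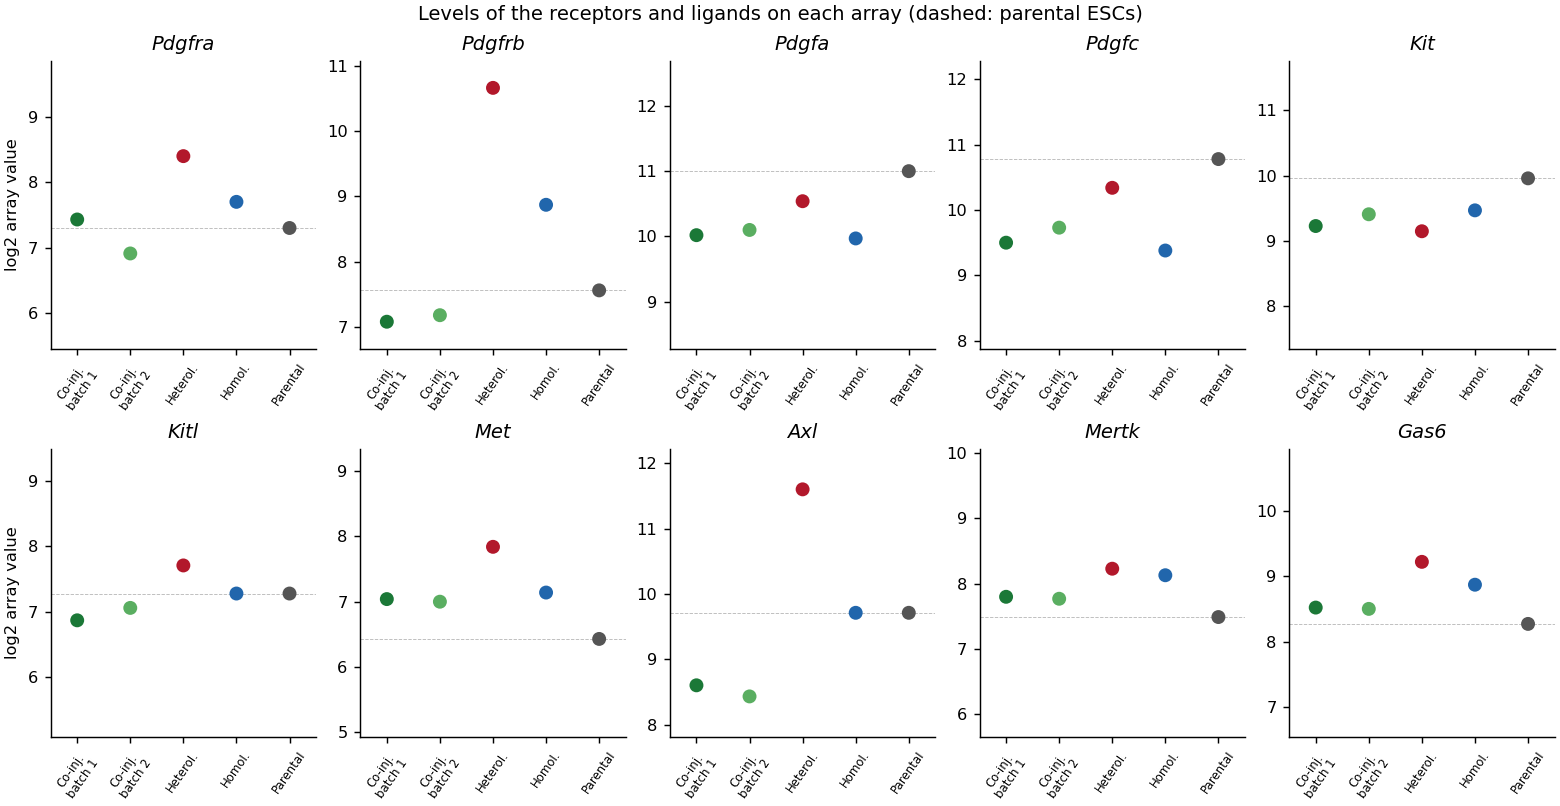
Log2 array value (vertical axis, the same span in each panel) of each of the 10 genes in the 2 co-injection arrays, the heterologous array, the homologous array and parental ESCs (horizontal axis). Pdgfrb and Axl reach 10.66 and 11.60 in the heterologous array, while Pdgfa, Pdgfc and Kit are highest in parental ESCs.

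Counted by comparison, 4 of the 10 genes, all of them receptors, exceeded parental ESCs by over 2-fold in the heterologous array, and none fell below them by as much. Over all named genes 3.98% were higher and 1.95% lower by this rule. The 4 were Pdgfrb, Axl, Met and Pdgfra, and the median over the 10 genes was 0.84, against -0.04 over all named genes. In the homologous array 1 gene was higher, Pdgfrb (1.45% of all named genes), and 2 were lower, Pdgfc and Pdgfa (1.60%). In the co-injection mean none was higher (0.647%) and 2 were lower than in parental ESCs, Axl and Pdgfc (1.44%). These 3 comparisons share the single parental array.

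Between the ESC-like conditions, 3 of the 10 genes were more than 2-fold lower in the co-injection mean than in the heterologous array, Pdgfrb, Axl and Pdgfra, and none was higher. The shares over all named genes were 2.99% lower and 0.361% higher. Except for Kit, at 0.17, all of the genes lay lower in the co-injection mean than in the heterologous array, and the median of the 10 was -0.74, against 0.07 over all named genes. Pdgfrb and Axl were also over 2-fold higher in the heterologous than in the homologous array, at 1.79 and 1.89, where 2.41% of all named genes were higher and 0.647% lower. The same 2 genes were the only members of the 10 that passed 2-fold between the co-injection mean and the homologous array. They were lower in the co-injection arrays by -1.74 ± 0.068 for Pdgfrb and -1.20 ± 0.12 for Axl (SD, n = 2), where 0.351% of all named genes were lower and 0.0752% higher. A fit of limma over all 5 arrays, which rests on 1 residual degree of freedom, called none of the 10 genes and none of all named genes in any of the 6 comparisons at an adjusted p under 0.05. At an unadjusted p under 0.05 it had between 4 and 8 of the 10 genes and between 3530 and 6842 of all named genes.

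**Figure D2:**
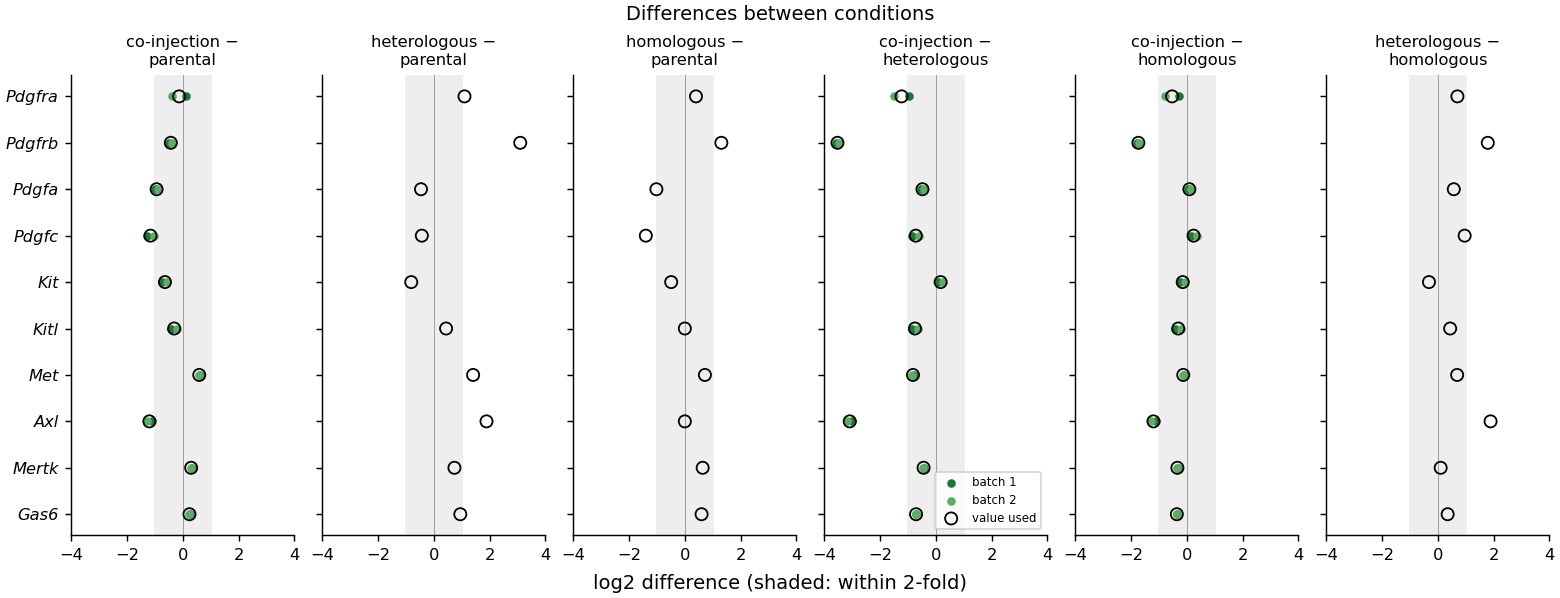
Log2 difference (horizontal axis) of each gene (vertical axis) in the 6 comparisons, with the first-named condition minus the other. Open circles are the values used, green points the single co-injection batches, and grey the range within 2-fold; only Pdgfrb and Axl lie outside it in all 3 comparisons between ESC-like conditions.

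Fibroblast markers were read because fibroblasts express Pdgfrb, Axl and Pdgfra. Most of the markers were, like these genes, highest in the heterologous array. Of 17 fibroblast marker genes, 12 exceeded parental ESCs by over 2-fold in the heterologous array and none was lower, with a median difference of 1.70. The shares over all named genes were 3.98% higher and 1.95% lower. After co-injection no marker was higher and 3 were lower (median -0.21), where these shares were 0.647% and 1.44%. In the homologous array 1 marker was higher and none lower (median 0.34), where the shares were 1.45% and 1.60%. The sum of the linear values of the list was 5243 and 5126 in the co-injection arrays, 21310 in the heterologous array, 7990 in the homologous array and 5776 in parental ESCs. The heterologous array thus had the highest sum and the co-injection arrays the lowest, the same order as for Pdgfrb. Prrx1, a transcription factor gene of mesenchyme, had log2 values of 6.95 and 6.64 in the co-injection arrays, 10.65 in the heterologous array, 8.83 in the homologous array and 7.86 in parental ESCs. Fbln2, the gene of the matrix protein fibulin 2, had 8.50 in each co-injection array, 12.31 in the heterologous array, 10.66 in the homologous array and 9.63 in parental ESCs. These 2 were among the 3 markers that were lower after co-injection, where 6 of the 17 lay above parental ESCs. Postn and Thbs2 had the largest heterologous differences (3.3 and 3.29), with -0.86 and 0.08 after co-injection. Pdpn was highest in the co-injection arrays, at 10.92 and 10.84, against 10.63 in the heterologous array. The part of fibroblast RNA in the values of Pdgfrb, Axl and Pdgfra was not tested.

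Markers of other cell types in which these receptors are known were read in the same way. The summed linear value of 11 markers of pericytes and smooth muscle was 4827 and 4629 in the co-injection arrays, 14734 in the heterologous array, 7439 in the homologous array and 5238 in parental ESCs. Of these, 3 exceeded parental ESCs by over 2-fold in the heterologous array, the contractile genes Tagln (2.23), Cnn1 (2.03) and Acta2 (1.92). Over all named genes 3.98% were higher and 1.95% lower in this comparison. Acta2, at 12.92, was the brightest of the list in the heterologous array and weighs most in its sum there. Over the list, 10 of 11 lay above 0 in this comparison, with a median of 0.58. Among the pericyte genes Notch3, Cspg4 and Mcam differed by 0.89, 0.75 and 0.58, and Rgs5, Abcc9 and Kcnj8 by 0.19, 0.03 and -0.10. The muscle genes Des and Myh11 differed by 0.19 and 0.08. Among 14 markers of the primitive endoderm, Dab2 (3.09), Cubn (1.90) and Lamb1 (1.24) were higher and Sox7 (-1.85) and Lama1 (-1.03) lower in this comparison, while the defining transcription factor genes Gata4 and Gata6 differed by 0.52 and 0.41. Of 12 macrophage markers only Lyz2 (1.16) was higher, and none of 12 markers of mast cells and melanocytes, in which KIT acts, passed 2-fold in any comparison. Of 10 endothelial markers, 2 lay above 0 in the heterologous array against parental ESCs (median -0.15). Only Pecam1 passed 2-fold there, at -1.44. None of 6 markers of oligodendrocyte progenitors passed 2-fold in any comparison. All 10 ESC markers, among them Pou5f1, Nanog and Sox2, had values of at least 8.53 on every array. Zfp42, Klf4, Esrrb and Fgf4, 4 of the 10, were more than 2-fold lower in the heterologous array than in parental ESCs. These drops were not limited to heterologous cells. Homologous cells had -0.78, -1.08, -0.65 and -0.77 for the same 4 genes, so that Klf4 passed 2-fold there too. After co-injection the 4 differences were -0.64, -0.77, -0.57 and -0.82. Medians of all 10 markers against parental ESCs were -0.66 for heterologous cells, -0.46 for homologous cells and -0.4 after co-injection. Above 0 lay 1, 2 and 2 of the 10.

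The genes whose pattern over the 5 arrays was most like that of each of the 3 members with the widest ranges were sought among the other 19937 named genes, by the Euclidean distance of the 5 log2 values after taking off each gene's mean. For Pdgfrb these were Osmr, the receptor subunit of oncostatin M (distance 0.319), Timp2, an inhibitor of matrix metalloproteinases (0.339), and Rhoj, a small GTPase (0.342). Osmr had log2 values of 6.37 and 6.70 in the co-injection arrays, 10.21 in the heterologous array, 8.60 in the homologous array and 7.16 in parental ESCs. For Axl they were Cd44, the hyaluronan receptor (0.239), the transcription factor gene Osr1 (0.356) and Thbs1, the gene of thrombospondin 1 (0.397). Cd44 had 6.98 and 7.10 in the co-injection arrays, 10.18 in the heterologous array, 8.26 in the homologous array and 8.39 in parental ESCs. Pdgfra was nearest to Gucy1a2, a subunit gene of soluble guanylate cyclase (0.237), the LIM protein gene Fhl3 (0.279) and the corepressor gene Runx1t1 (0.287). Within the 10 genes the closest pairs were Mertk and Gas6 (0.232), Pdgfa and Pdgfc (0.351), and Met and Gas6 (0.379), while Pdgfrb and Axl were 1.05 apart, since Axl did not differ between the homologous array and parental ESCs. Pdgfrb and Kit were the farthest apart (3.34).

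**Figure D3:**
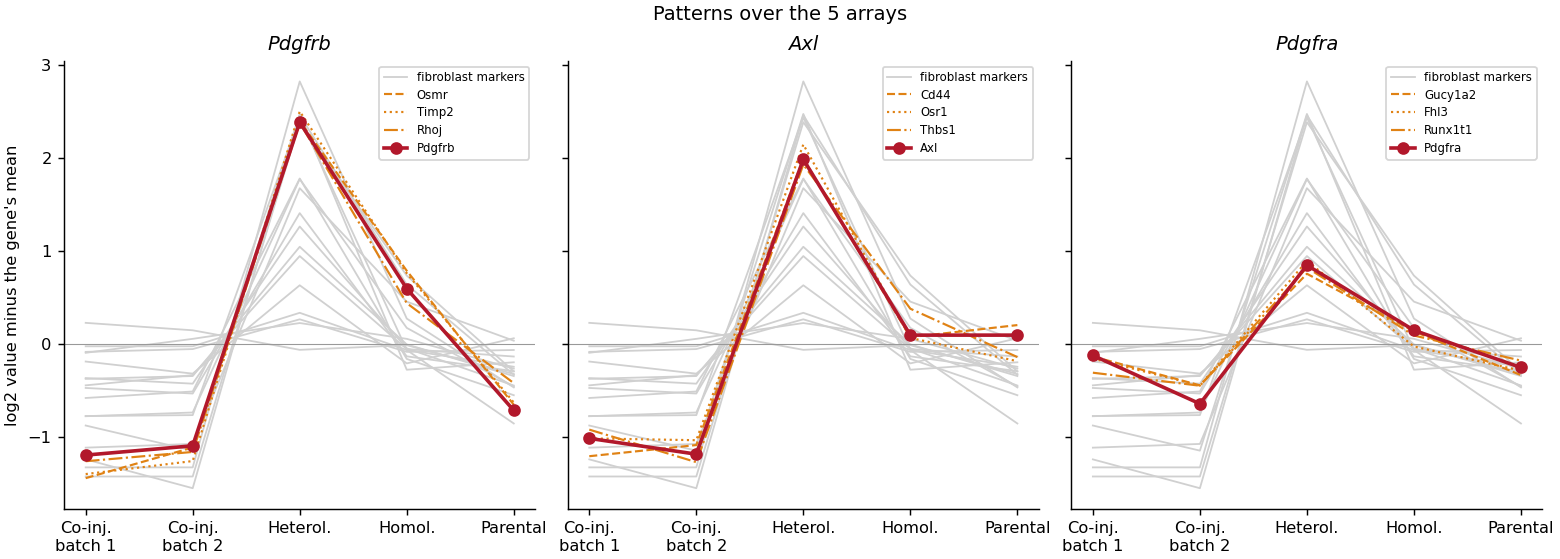
Log2 value minus the gene's own mean (vertical axis) over the 5 arrays (horizontal axis) for Pdgfrb, Axl and Pdgfra (red), the 3 genes most like each (orange) and the 17 fibroblast markers (grey). The lines join arrays only to show the pattern; the red line peaks in the heterologous array in each panel.

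Of 12 remaining ligand and receptor genes of these families, Csf1 and Pros1 passed 2-fold in some comparison. None passed 2-fold against parental ESCs in the heterologous or homologous array, and 1, Csf1, was lower in the co-injection mean. Csf1, the gene of macrophage colony-stimulating factor, had log2 values of 8.24 and 8.00 in the co-injection arrays, 10.58 in the heterologous array, 9.06 in the homologous array and 9.59 in parental ESCs. It was thus highest in the heterologous array and lowest in the co-injection arrays, with a difference between these of -2.45 ± 0.17 (SD, n = 2). Csf1r, the gene of its receptor and a relative of Kit and Pdgfrb, differed by 0.11 in the co-injection mean, -0.11 in the heterologous array and -0.19 in the homologous array from parental ESCs. Pros1, the gene of the TAM ligand protein S, was lower in the co-injection mean than in the heterologous array (-1.11 ± 0.14, SD, n = 2). Tyro3, the third TAM receptor gene, stayed within 2-fold throughout, at -0.37, -0.48 and -0.14 against parental ESCs in the co-injection mean, the heterologous and the homologous array, and so did Pdgfb and Pdgfd.

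Among 14 genes for the activation, shedding and inhibition of these proteins, Plat and Plau passed 2-fold upwards in the heterologous array against parental ESCs and none was lower. The shares over all named genes were 3.98% higher and 1.95% lower. Plat encodes tissue plasminogen activator, which cleaves PDGF-C into its active form, and Plau encodes urokinase. Plat had log2 values of 7.27 and 7.41 in the co-injection arrays, 9.11 in the heterologous array, 7.62 in the homologous array and 7.19 in parental ESCs. Plau had 6.78 and 6.99 in the co-injection arrays, 8.76 in the heterologous array, 6.83 in the homologous array and 7.03 in parental ESCs. Both were high in the heterologous array alone. In the co-injection mean and the homologous array none of the 14 genes differed from parental ESCs by over 2-fold. Against the heterologous array, Plau (-1.87), Plat (-1.78), Sparc (-1.11) and Adam10 (-1.11) were lower in the co-injection mean, and St14, the gene of the epithelial protease matriptase, was higher (1.18).

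Of 28 genes for adaptors and signalling proteins, 2 exceeded their parental values by over 2-fold in heterologous cells, Gab2 (1.28) and Grb10 (1.12), and none was lower. Of all named genes 3.98% were higher and 1.95% lower in this comparison. Plcg2, a phospholipase C gene, was higher in the co-injection mean (1.02 ± 0.0088, SD, n = 2) and the homologous array (1.36), with 0.21 in the heterologous array. Grb10, an imprinted gene, came close to 2-fold in the co-injection mean (0.99 ± 0.41, SD, n = 2), where its batches differed widely. The medians of this list against parental ESCs were 0.00 in the co-injection mean, 0.18 in the heterologous array and 0.20 in the homologous array, and the shared core adaptors Grb2, Shc1 and Ptpn11 stayed within 2-fold. Of 13 genes for receptor turnover and phosphatases, Ptprj, a receptor phosphatase gene, was lower than in parental ESCs, with differences of -1.78 ± 0.074 (SD, n = 2) in the co-injection mean and -1.17 in the homologous array, and of -0.83, within 2-fold, in the heterologous array. Lrig1, which encodes a protein that limits receptor kinases, was lower in the co-injection mean than in the heterologous array (-1.06 ± 0.063, SD, n = 2). The other 11 stayed within 2-fold in all 6 comparisons.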

How the data were processed

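The authors extracted probe intensities with GCOS, processed them with RMA and quantile normalization, and deposited log2 values for 35556 probe sets on each of 5 arrays. The software versions are not stated in the sources read. These values, which ran from 2.77 to 13.97, were used with no further normalization. Symbols come from the platform annotation, where 21789 probe sets name exactly 1 gene and stand for 19938 genes, each by its brightest probe set. The table holds no detection calls, so it does not tell which values are above background.

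The members and gene lists were chosen with earlier results of these data known. Lyn and Fbn1 of the lists had no such probe set. All 10 members are named, as are the 3 genes most like each of 3 members and the genes around Kit. List genes past 2-fold in a comparison were to be named, at most 4 per list and comparison, but not all of these are. Others were chosen after their values were seen. Differences are the log2 values of an array, or of the co-injection mean, minus those of another. Alternatives were 1.5-fold and 3-fold, all probe sets of a gene, a filter on dim values, cyclic loess, each co-injection array left out, and limma, fitted over all named genes with Benjamini-Hochberg adjustment and tested on simulated data. Background correction and slides as blocks could not be run on these values. Python 3.11.15, numpy 2.4.6, pandas 2.3.3, matplotlib 3.10.9, R 4.3.3 and limma 3.58.1 were used.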

Additional observations from a re-analysis of the deposited data

Results flagged for a closer look

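Axl moved in opposite directions from parental ESCs in the co-injection and heterologous cells, both grown in B6D2F1 mice. Its difference from parental ESCs was -1.20 in the co-injection mean, with -1.12 in batch 1 and -1.28 in batch 2, and 1.89 in the heterologous array. The parental array cancels in the difference between these changes, which is that of the co-injection mean from the heterologous array, -3.09. The heterologous side of it is 1 array, so it has no replicate check. Axl was not alone in this pattern. Of the 17 fibroblast markers, 3 also passed 2-fold both ways, up in the heterologous array and down in the co-injection mean. They were Prrx1 (2.80 and -1.07), Fbln2 (2.68 and -1.13) and Thy1 (1.64 and -1.12). Of the 11 markers of pericytes and smooth muscle, Acta2 did so (1.92 and -1.48). The share of all named genes that passed 2-fold both ways was not taken, so these counts have none beside them. The part of feeder or other fibroblast RNA in the Axl values was not tested.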

How the results depend on the processing

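The counts of the 10 genes past 2-fold depended on the threshold. At 1.5-fold the count for the co-injection mean against parental ESCs was 5 in place of 2 (1 higher, 4 lower). It was 7 in place of 4 for the heterologous array (6 higher, 1 lower) and 6 in place of 3 for the homologous array (4 higher, 2 lower). The co-injection mean against the heterologous array had 7 in place of 3, all lower. The heterologous against the homologous array had 5 in place of 2, all higher. At 3-fold the counts were 0 for the co-injection mean and 0 for the homologous array against parental ESCs. They were 2 for the heterologous array and 1, Pdgfrb, for the co-injection mean against the homologous array. Shares over all named genes were taken at 2-fold only, so the counts at 1.5-fold and 3-fold have none beside them. Limma gave 0 in all 6 comparisons, with 1 residual and 0.797 prior degrees of freedom. Without either co-injection array in turn the counts were 2 against parental ESCs, 2 against the homologous array and 2 to 3 against the heterologous array, where Pdgfra dropped out without batch 2. The filter on dim values, cyclic loess and the mean over probe sets left all 6 counts as they were, the last because each of the 10 genes has 1 probe set. The filter asked only that the higher of the 2 values compared lie above the median of all values, 7.49. Met and Pdgfra, at 6.43 and 7.30 in parental ESCs, passed it there through the heterologous array alone. It could thus hardly remove a gene past 2-fold and is no check on the lower values. No difference past 2-fold changed sign under the alternatives run. No paired analysis was possible because 3 of the 4 conditions have 1 array.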

Other observations

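Exact ties between arrays were frequent in the deposited values. Of the 19938 named genes, 6018 (30.2%) had the identical value on at least 1 pair of the 5 arrays, and 1176 (5.90%) on the co-injection pair. Among the 10 genes only Axl and Kitl had a tie, both between the homologous array and parental ESCs. Where the co-injection pair is tied its SD is 0, so SDs of this pair can be smaller than the spread between separate cultures.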
